A study of Mus musculus with 7 samples.

Results

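The small leucine-rich proteoglycans are secreted matrix proteins built around a curved stack of leucine-rich repeats. The 10 genes described here, Dcn, Lum, Fmod, Bgn, Aspn, Ogn, Omd, Prelp, Kera and Epyc, were taken by symbol, each from the brightest of its probe sets that name a single gene, and all 10 were found among the 22180 genes measured. Levels are log2 values from 1-colour arrays of total RNA from C57Bl/6 mice. The 3 blastemas came from regenerating digits 2 weeks after amputation, and the 4 controls were uninjured digits. The labels name no transgene, drug, sex or age for either group and do not say how much of the digit was dissected or whether animals were pooled. The study concerns Schwann cell precursors that act on digit tip regeneration through secreted factors, and the arrays compare blastema with uninjured digit.

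Proteins of this family lie on the surface of collagen fibrils, where they set fibril diameter and spacing, and several of them bind growth factors such as TGF-beta and BMPs. They are sorted into classes by sequence: class I holds biglycan (Bgn), decorin (Dcn) and asporin (Aspn), class II holds lumican (Lum), fibromodulin (Fmod), osteomodulin (Omd), PRELP (Prelp) and keratocan (Kera), and class III holds osteoglycin (Ogn) and epiphycan (Epyc). Biglycan and osteomodulin are known from bone, decorin, lumican and fibromodulin from skin and tendon, keratocan from cornea, and epiphycan from growth cartilage.

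Of the 10 members, 6 rose in the blastema, 0 fell and 4 did not pass the test. Those that rose were Lum, Omd, Bgn, Fmod, Ogn and Aspn, by 3.46-fold to 4.94-fold, and each class held at least 1 of them. Dcn, Prelp, Kera and Epyc had no difference that passed. The test was limma over all 22180 genes, two-sided, with Benjamini-Hochberg adjustment and a threshold of 0.05. It called 9.64% of all genes, with 4.98% higher in the blastema and 1.53% higher by at least 2-fold. Each of the 6 members lay higher on every blastema array than on any uninjured array, which held for 10.4% of all genes. The median log2 fold change of the 10 members was 1.81, against -0.0054 over all genes. In whole tissue, more cells that express a gene and more of its RNA per cell cannot be told apart.

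**Figure D1:**
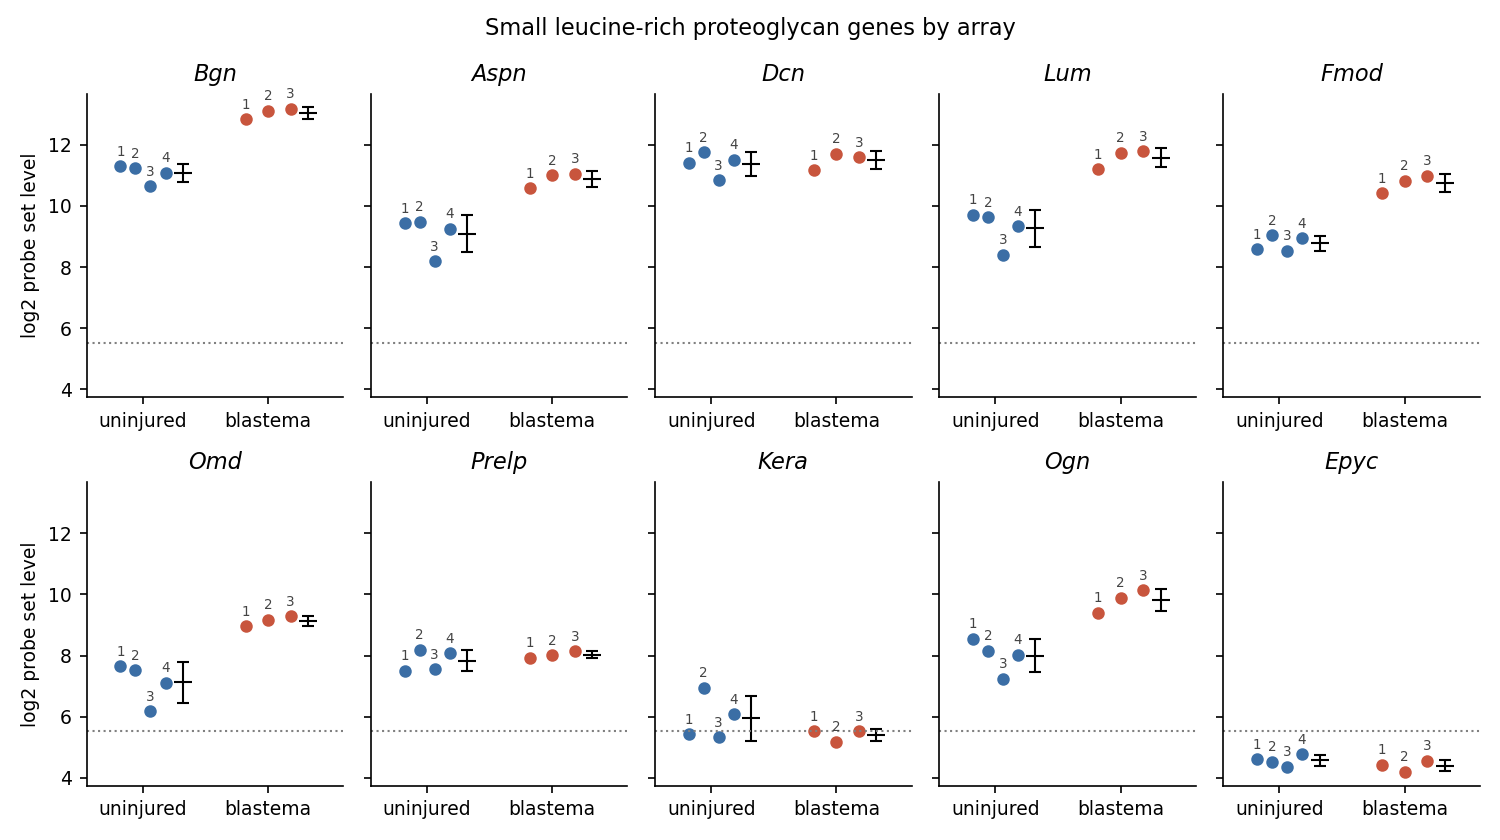
Log2 probe set level of each member (vertical axis) in 4 uninjured digits and 3 blastemas (points, numbered by replicate), with the mean and SD of each group beside them and a dotted line at the background proxy of 5.52. Bgn, Aspn, Lum, Fmod, Omd and Ogn lie higher on all blastema arrays, the groups of Dcn and Prelp overlap, Kera is highest on uninjured array 2, and Epyc lies under the dotted line.

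Aspn, Omd and Ogn are neighbours on chromosome 13, and all of them rose. The bases before their start sites are shown because these neighbours moved together. They come from RefSeq, build GRCm38.p6, plus strand, and are the 250 bases before the annotated start, at chr13:49544193-49544442 for Aspn, chr13:49582212-49582461 for Omd and chr13:49607765-49608014 for Ogn. Capitals mark matches on either strand to the TATA box TATAAA, the AP-1 motif TGANTCA, the Runx core motif TGTGGT, the motif CCAAT or the GC box motif GGGCGG.
Aspn: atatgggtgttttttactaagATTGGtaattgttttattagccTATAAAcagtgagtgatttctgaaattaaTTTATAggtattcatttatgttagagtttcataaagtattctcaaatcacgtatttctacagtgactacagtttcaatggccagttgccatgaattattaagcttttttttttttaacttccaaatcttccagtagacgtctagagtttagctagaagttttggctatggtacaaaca
Omd: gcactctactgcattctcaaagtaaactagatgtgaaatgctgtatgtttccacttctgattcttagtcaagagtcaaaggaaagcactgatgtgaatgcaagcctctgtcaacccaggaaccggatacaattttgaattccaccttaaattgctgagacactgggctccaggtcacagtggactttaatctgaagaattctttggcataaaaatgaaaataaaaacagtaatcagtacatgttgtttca
Ogn: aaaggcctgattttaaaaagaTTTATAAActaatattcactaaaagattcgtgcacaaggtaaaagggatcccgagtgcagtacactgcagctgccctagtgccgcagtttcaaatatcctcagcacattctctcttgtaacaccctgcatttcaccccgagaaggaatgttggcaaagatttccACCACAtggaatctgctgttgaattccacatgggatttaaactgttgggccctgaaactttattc
The Aspn window held TATAAA starting 207 bases before the start site and, on the other strand, 178 bases before it, and CCAAT on the other strand at 229. In the Ogn window TATAAA lay at 227 and, overlapping it on the other strand, at 229, and the Runx core lay at 65 on the other strand. No letters of these motifs were found in the Omd window. Of 32851 promoter windows of this length, 12.4% held TATAAA, 14% the Runx core, 33.8% CCAAT, 32.7% GGGCGG and 6.75% TGANTCA. A match describes the letters and not a bound factor.

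Fmod and Prelp, neighbours on chromosome 1, are shown because they differ: Fmod rose and Prelp did not pass. The windows are again the 250 bases before the start, at chr1:134037004-134037253 on the plus strand for Fmod and at chr1:133921402-133921651 on the minus strand for Prelp, with the same motifs in capitals.
Fmod: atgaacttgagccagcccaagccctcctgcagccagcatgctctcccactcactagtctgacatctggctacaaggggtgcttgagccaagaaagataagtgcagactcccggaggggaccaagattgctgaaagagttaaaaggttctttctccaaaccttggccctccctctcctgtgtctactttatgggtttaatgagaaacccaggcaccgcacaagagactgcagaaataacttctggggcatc
Prelp: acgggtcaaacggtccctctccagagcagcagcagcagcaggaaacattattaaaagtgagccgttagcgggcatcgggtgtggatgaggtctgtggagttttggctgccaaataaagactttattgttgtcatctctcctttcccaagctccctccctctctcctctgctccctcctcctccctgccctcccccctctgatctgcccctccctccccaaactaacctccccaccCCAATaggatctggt
The Prelp window held CCAAT at 15 bases before the start site, and the Fmod window held none of the motifs in capitals. The E-box CANNTG, which is not marked, was in 5 of the 9 member windows, Fmod among them, and in 66.2% of all windows. Of the 10 members, 8 had windows in the RefSeq table, and Dcn and Lum had no entry. The share of G and C in the member windows was lowest in Aspn and highest in Bgn (64.4%), with a median of 52.4% over all windows. The Bgn window was the member window with the most CG pairs (7, against a median of 6 over all windows) and the one with a GC box. TGANTCA was in 0 of the 9.

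Among the class I genes, Bgn and Aspn rose and Dcn did not pass. Bgn, whose protein carries chondroitin or dermatan sulfate chains in bone and other connective tissue, lay at 11.29, 11.24, 10.65 and 11.09 in the uninjured digits and at 12.83, 13.11 and 13.18 in the blastemas. The nearest arrays of the groups were 1.54 apart, the widest gap among the 6 members that rose. Bgn had a log2 fold change of 1.97 ± 0.17 (SE) and a limma adjusted p of 0.00181. A second, dimmer Bgn probe set gave 2.13 ± 0.21 (SE, limma adjusted p = 0.00401 over 41345 probe sets). Aspn, whose protein binds collagen and TGF-beta, lay at 9.43, 9.48, 8.20 and 9.25 in the uninjured digits and at 10.58, 11.01 and 11.05 in the blastemas. Uninjured array 3 was the low one, and the groups did not overlap. The log2 fold change of Aspn was 1.79 ± 0.32 (SE), with a limma adjusted p of 0.0151.

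Dcn, which encodes the main dermatan sulfate proteoglycan of skin and tendon, overlapped between the groups. It lay at 11.42, 11.76, 10.84 and 11.51 in the uninjured digits and at 11.16, 11.71 and 11.60 in the blastemas, so that every blastema lay inside the uninjured range. The log2 fold change was 0.11 (95% interval -0.42 to 0.65, limma adjusted p = 0.806). The upper bound of that interval is below the lower bounds of the intervals for Bgn (1.58) and Aspn (1.05).

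In class II, Lum, Fmod and Omd rose, and Prelp and Kera did not pass. Lum, a keratan sulfate proteoglycan of cornea and dermis, lay at 9.72, 9.64, 8.40 and 9.34 in the uninjured digits and at 11.21, 11.74 and 11.79 in the blastemas. Uninjured array 3 was again the lowest, and the nearest arrays of the groups were 1.49 apart. Its log2 fold change of 2.30 ± 0.33 (SE), or 4.94-fold, was the largest of the 10 members and number 50 of the 22180 genes, with a limma adjusted p of 0.00721. Fmod, whose protein binds type I collagen and guides its crosslinking, lay at 8.58, 9.04, 8.54 and 8.94 in the uninjured digits and at 10.41, 10.82 and 10.99 in the blastemas. Its uninjured arrays had an SD of 0.26 (n = 4), against 0.60 for Lum. Fmod rose by 1.96 ± 0.18 (SE, limma adjusted p = 0.00206), and its second probe set by 1.81 ± 0.17 (SE, limma adjusted p = 0.00341 over all probe sets).

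Omd, a keratan sulfate proteoglycan that osteoblasts secrete, lay at 7.66, 7.52, 6.19 and 7.12 in the uninjured digits and at 8.96, 9.18 and 9.29 in the blastemas. Its uninjured SD of 0.66 (n = 4) was the widest of the genes that rose, and its blastema SD of 0.17 (n = 3) the narrowest. The log2 fold change was 2.02 ± 0.33 (SE), with a limma adjusted p of 0.0121. Prelp, whose protein links basement membranes to collagen, lay at 7.51, 8.19, 7.56 and 8.07 in the uninjured digits and at 7.93, 8.01 and 8.15 in the blastemas. All blastemas were inside the uninjured range, and the log2 difference was 0.20 (95% interval -0.23 to 0.62, limma adjusted p = 0.561). The second Prelp probe set had the opposite sign, -0.28 ± 0.11 (SE, limma adjusted p = 0.192 over all probe sets).

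Kera, a keratan sulfate proteoglycan of the cornea, varied more among the uninjured digits than between the groups. It lay at 5.43, 6.95, 5.34 and 6.08 in the uninjured digits and at 5.52, 5.19 and 5.52 in the blastemas. Uninjured arrays 2 and 4 were high, and the others were near or below 5.52, a level that 95% of 1105 olfactory receptor genes stayed under on average, used as a proxy for background. The log2 difference was -0.54 (95% interval -1.42 to 0.34, limma adjusted p = 0.425). The mean of the 9 tendon markers, though not each of them, was also highest on these arrays. Relative to its mean over all arrays, it was 0.41 on array 2 and 0.27 on array 4. On uninjured arrays 1 and 3 it was 0.01 and 0.00. Other lists were likewise higher on uninjured arrays 2 and 4 than on 1 and 3, among them the fibroblast (-0.08 and -0.22 against -0.43 and -0.73), chondrocyte (-0.16 and -0.07 against -0.33 and -0.43) and endothelial markers (-0.02 and -0.07 against -0.58 and -0.35). List means hide wider splits of single genes, though not of every gene. Prg4, a proteoglycan gene outside the family, lay at 5.86, 10.38, 6.43 and 11.37 in the uninjured digits. The chondrocyte marker Comp lay at 5.87, 7.81, 6.15 and 7.79. Both were named after their values were seen. The part of the listed tissues in the Kera values was not tested.

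In class III, Ogn rose and Epyc was under the background proxy in both groups. Ogn, known from bone and other connective tissue, lay at 8.55, 8.16, 7.25 and 8.03 in the uninjured digits and at 9.41, 9.90 and 10.14 in the blastemas. The nearest arrays of the groups were 0.86 apart, the narrowest gap among the members that rose. The log2 fold change of Ogn was 1.82 ± 0.31 (SE, limma adjusted p = 0.0131). Epyc lay at 4.61, 4.53, 4.37 and 4.78 in the uninjured digits and at 4.44, 4.20 and 4.56 in the blastemas (log2 difference -0.17, 95% interval -0.46 to 0.11, limma adjusted p = 0.431).

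The calls of Aspn, Ogn and Omd needed both blastema arrays 2 and 3. Without blastema array 2 or 3, limma gave adjusted p-values of 0.0704 and 0.0762 for Aspn, 0.0642 and 0.0683 for Ogn and 0.0588 and 0.0647 for Omd. Their log2 fold changes were then between 1.66 and 2.00, and the share of all genes called was 3.99% and 3.81%. Lum, Fmod and Bgn passed with any 1 array omitted.

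**Figure D2:**
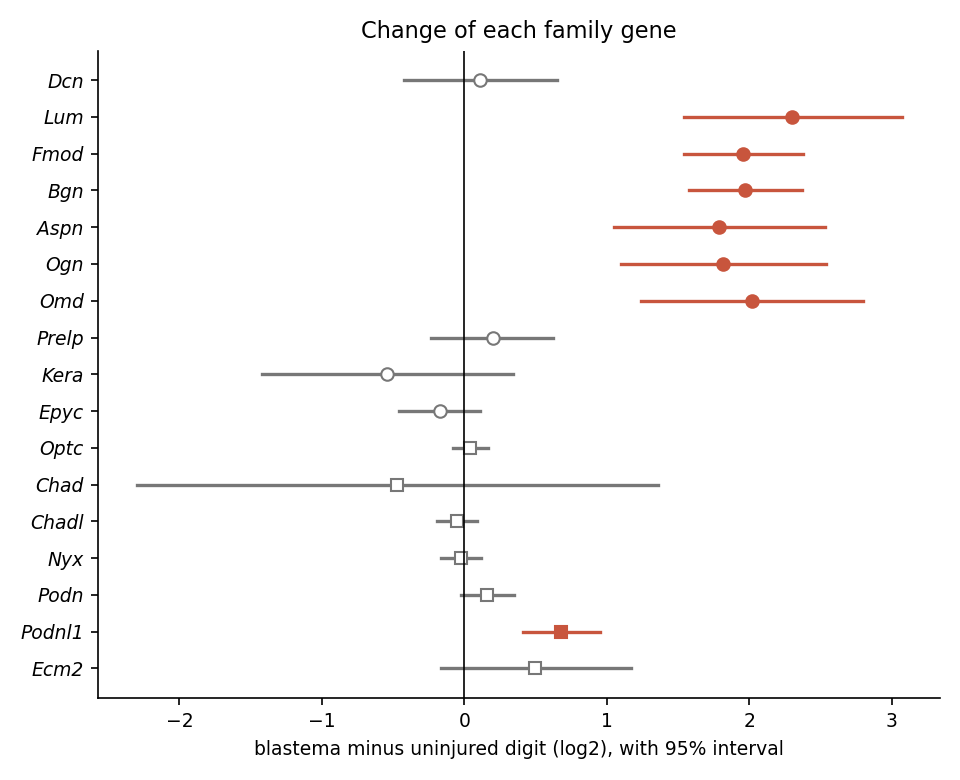
Blastema minus uninjured digit on the log2 scale (horizontal axis, points) with 95% intervals from limma (bars) for the 10 members (circles) and 7 further family genes (squares); filled red symbols passed an adjusted p of 0.05. The intervals of 6 members and of Podnl1 lie above 0, and those of Dcn, Prelp, Kera and Epyc cross it.

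Arrays were ordered alike across the members that rose. Uninjured array 3 was the lowest control for all 6 of them, and for 9 of the 10 members, Prelp being the exception. Blastema array 1 was the lowest and blastema array 3 the highest blastema for all 6. The mean of the 6 on uninjured array 3 was -1.53 relative to their mean over all arrays, against -0.77 to -0.53 on the other uninjured arrays and 0.83 to 1.34 on the blastemas. Without uninjured array 3 the log2 fold changes of the 6 were 1.5 to 2.01, with limma adjusted p-values of 0.006 to 0.0211.

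Whether related members changed by different amounts was tested on the per-array difference of their log2 levels, for 11 pairs, with a two-sided exact permutation test over all 35 assignments of the arrays. The smallest p this test can give is 0.0286. It was reached by 6 pairs, each with an adjusted p of 0.0524 over the 11, which misses the threshold of 0.05. In class I, Dcn and Bgn differed in their log2 change by -1.86 and Dcn and Aspn by -1.68. The level of Dcn minus that of Bgn, relative to its mean over all arrays, was 0.62, 1.00, 0.67 and 0.90 in the uninjured digits and -1.18, -0.92 and -1.09 in the blastemas, so the groups were far apart for their spread. The other pairs at the smallest p were Lum and Dcn (2.19), Lum and Kera (2.84), Fmod and Prelp (1.77) and Ogn and Epyc (1.99). Prelp and Omd differed by -1.83 (exact permutation p = 0.0571, adjusted 0.0898). When a gene's probe sets were averaged in place of taking the brightest, these 7 pairs each had an adjusted p of 0.0449 by the same exact permutation test. Dcn, Aspn, Lum, Kera, Ogn and Epyc have no further probe set, so the pairs among them kept the same values. Their adjusted p was lower only because Prelp and Omd joined the pairs at the smallest p, so averaging gave no further evidence for them. Dcn and Bgn, and Fmod and Prelp, were also at the smallest p before averaging, so their adjusted p was lower for the same reason.

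Pairs of members that both rose differed less in their change, which follows from grouping the pairs by their calls. Aspn and Ogn differed by -0.03 in their log2 change, with SDs of the per-array difference of 0.21 (n = 4) and 0.13 (n = 3). Bgn and Aspn differed by 0.18, Ogn and Omd by -0.20 and Lum and Fmod by 0.34. The exact permutation p-values of these pairs were 0.857, 0.4, 0.229 and 0.371, in that order, which does not show that the changes were equal.

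Of 8 further genes of the family, 7 were measured. Only 1 passed, upwards, and the median over the 7 was 0.04 on the log2 scale. The gene that rose was Podnl1, a relative of podocan, at 5.57, 5.42, 5.14 and 5.28 in the uninjured digits and at 5.91, 6.01 and 6.16 in the blastemas. The groups did not overlap, and the change was 0.68 ± 0.11 (SE, limma adjusted p = 0.0129). Its uninjured mean of 5.35 was under the background proxy, and it did not pass without blastema array 2 or 3 (limma adjusted p = 0.0573 and 0.0634). Ecm2, a matrix protein gene beside Aspn, differed by 0.50 (95% interval -0.16 to 1.17, limma adjusted p = 0.327), and Podn, which encodes podocan, by 0.16 (0.26). Chad, which encodes chondroadherin of cartilage, was split among the controls, at 5.54, 8.04, 5.74 and 8.48, and lay at 6.46, 5.90 and 7.08 in the blastemas. As with Kera, uninjured arrays 2 and 4 were the high ones. Optc and Nyx, known from the eye, had means under the background proxy in both groups, and Chadl lay at 5.92 on every array but blastema array 2. Tsku was not analysed here.

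Of 15 measured neighbours of the members outside the family, 1 rose and 4 fell. Of all genes 9.64% were called, 4.98% of them all as higher. The calls of Ippk, Btg2 and Haus7 were close to the threshold of 0.05. In the RefSeq order on chromosome 13 (Ippk, Cenpp, Ecm2, Aspn, Omd, Ogn, Nol8, Iars), the family genes lie inside the span of the centromere protein gene Cenpp. Cenpp, with means at the background proxy (5.53 and 5.50), differed by -0.03 (limma adjusted p = 0.871), Nol8 beside Ogn did not pass (0.14), Ippk fell (-0.36, 0.0481) and Iars, which encodes a tRNA synthetase, rose (0.54, 0.0257). On chromosome 10 Dcn, Lum, Kera and Epyc follow each other, and Lum alone of these passed the test. On chromosome 1 Fmod lies between Prelp, which did not pass, and Btg2, an antiproliferative gene, which fell (-0.41, limma adjusted p = 0.0446). Beside Bgn on chromosome X, Haus7 fell (-0.53, limma adjusted p = 0.0489), as did Trex2 (-1.08, 0.00542), and Atp2b3 and Dusp9 did not pass.

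**Figure D3:**
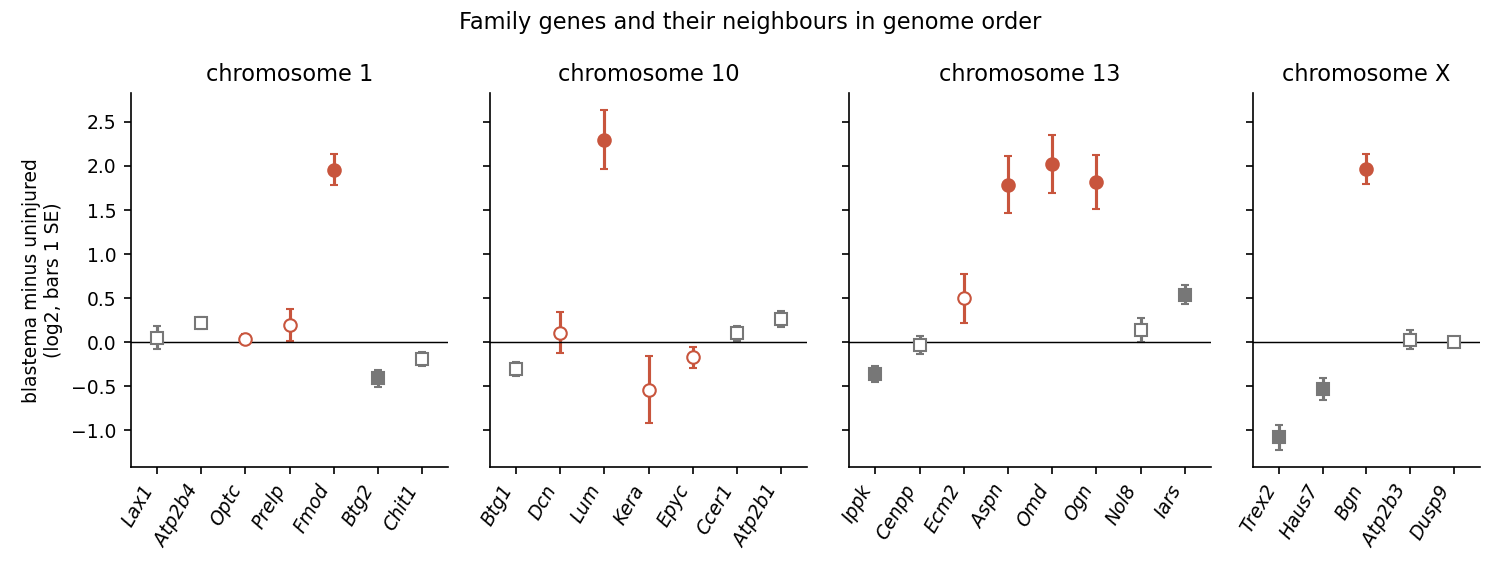
Blastema minus uninjured digit on the log2 scale (vertical axis, bars 1 SE) for family genes (red circles) and neighbouring protein-coding genes (grey squares) in genome order along chromosomes 1, 10, 13 and X; filled symbols passed limma. Aspn, Omd and Ogn lie together at 1.79 to 2.02, beside the family gene Ecm2, which did not pass. Lum and Fmod also stand beside family genes that did not pass.

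Most collagens of a wider list rose as well. It holds fibril-forming collagens, and also the type VI genes Col6a1, Col6a2 and Col6a3 and the fibril-associated Col12a1 and Col14a1. Of the 14 collagens listed, all measured, 12 rose and 0 fell. Their median was 2.37 on the log2 scale. Col1a1 and Col1a2, the chains of type I collagen, changed most (3.48 ± 0.27 and 3.35 ± 0.28, SE). The exceptions, named after their values were seen, were the cartilage collagen gene Col2a1 (0.33, limma adjusted p = 0.117) and Col14a1 (-0.20, 0.411). The array means of the list ran from -1.23 on uninjured array 3 to -0.64 in the controls and from 0.84 to 1.32 in the blastemas, close to those of the 6 members that rose.

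The sugar chains of the family are built by enzymes that were counted by chain. Of 16 measured genes for the linker and the chondroitin chain, 3 rose and 0 fell (median 0.20), the largest changes being those of Csgalnact1, which starts the chain (1.20 ± 0.27 SE, limma adjusted p = 0.0342, from an uninjured mean of 5.12, under the background proxy), and the chondroitin synthase gene Chsy1 (0.60 ± 0.12, 0.0255). Without any 1 of uninjured arrays 2, 3 and 4 or blastema arrays 2 and 3, 0 of this list rose. Of 4 dermatan sulfate genes 2 rose, the epimerase gene Dse (0.80 ± 0.13 SE, limma adjusted p = 0.0126) and the sulfotransferase gene Chst14 (0.40 ± 0.10, 0.0447). Without blastema array 2 neither passed, and without blastema array 3 or uninjured array 2, 3 or 4 the count was 1. Of 6 measured keratan sulfate genes 2 rose, B4galt1, a galactosyltransferase gene that also serves other glycans (1.44 ± 0.13 SE, limma adjusted p = 0.00218), and the sulfotransferase gene Chst2 (0.41 ± 0.06, 0.00852), and both passed with any 1 array omitted. The other measured keratan sulfate genes had means under the background proxy in both groups, so their lack of a call says little. Under scaling to reference genes Chst2 (limma adjusted p = 0.312), Chsy1 (0.0993) and Chst14 (0.42) did not pass. Each of the 3 lists then had 1 gene that rose.

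Genes for proteins that process or cleave matrix proteins rose where they were called. Of 11, 5 rose and 0 fell (median 0.53), led by the collagenase gene Mmp13 (5.06 ± 0.43 SE, limma adjusted p = 0.00181, from an uninjured mean of 4.60, under the background proxy) and the membrane protease gene Mmp14 (2.40 ± 0.14, 0.00122). Of 15 signalling partners, 5 rose and 0 fell (median 0.39), with the ligand genes Tgfb1 (1.6 ± 0.19 SE, limma adjusted p = 0.00422) and Tgfb3 (1.6 ± 0.28, 0.0144) changing most. The count was 3 without blastema array 2 or 3, where Tgfb3 did not pass (0.0693 and 0.0732), and 8 without blastema array 1. Of 15 proteoglycans outside the family, 8 rose and 0 fell (median 0.65), led by Acan of cartilage (2.76 ± 0.34 SE, limma adjusted p = 0.00481) and Hspg2 of basement membranes (1.44 ± 0.12, 0.00177). That count was 4 without blastema array 2 or 3 and 5 without uninjured array 2, 3 or 4.

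Markers of bone, fibroblasts and cartilage were counted beside the members. All 8 measured osteoblast markers of 12 rose, led by Ibsp (5.73 ± 0.64 SE) and Alpl (3.44 ± 0.30), which encode bone sialoprotein and alkaline phosphatase, with array means of -1.52 to -0.83 in uninjured digit, lowest on array 3, and 1.19 to 1.64 in blastema. Of 10 fibroblast markers 4 rose, led by the protease gene Fap (2.11 ± 0.23 SE) and the receptor gene Pdgfrb (1.75 ± 0.20), with array means of -0.73 to -0.08, lowest on array 3, against 0.22 to 0.72. The fibroblast count was 2 without blastema array 2 or 3. Of 12 chondrocyte markers 4 rose, Acan and Hapln1 (1.97 ± 0.40 SE, from an uninjured mean of 5.22, under the background proxy) most, with array means of -0.43 to -0.07 against 0.22 to 0.42, and the count was 1 or 2 without blastema array 2 or 3 or uninjured array 2, 3 or 4. The part of the mix of cell types in the changes of the members was not tested.

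Some tendon and epidermis markers fell. Of 9 tendon markers 0 rose and 3 fell, with array means of 0.00 to 0.41 in uninjured digit and -0.35 to -0.09 in blastema, led by Thbs4 (-1.85 ± 0.31 SE) and Angptl7 (-1.62 ± 0.28). Without blastema array 2, 0 tendon markers fell and 1 rose, and without blastema array 3, 1 fell and 0 rose. The tendon transcription factor genes Scx, Mkx and Egr1, named after their values were seen, did not pass and had positive differences (0.45, 0.47 and 0.69). Of 11 measured epidermis markers of 12, 4 fell and 0 rose, with array means of 0.07 to 0.30, highest on uninjured array 3, against -0.36 to -0.20, led by the keratin gene Krt2 (-2.69 ± 0.52 SE) and Lor, the loricrin gene (-0.87 ± 0.13). The epidermis count was 2 without blastema array 2 or without uninjured array 2, 3 or 4. Under scaling to reference genes, which lowers every change, 8 epidermis and 5 tendon markers fell. Of 8 macrophage markers 5 rose, and of 8 endothelial markers 2 rose. Of 6 measured Schwann cell markers Erbb3 alone was called, and it fell (-0.59). Sox10 and S100b had means near or under the background proxy, and Ngfr, Mbp and Foxd3 lay above it and did not pass. The macrophage count was 1 without blastema array 2 or 3 or uninjured array 3 or 4. The endothelial count was 0 or 1 without any 1 array but blastema array 1, and under each of the same omissions 0 Schwann cell markers were called. Of 8 muscle markers, 3 of them above the background proxy, and of 6 adipocyte markers, also 3 of them above it, 0 were called. Keratinocyte genes were bright in both groups, with means of 13.05 and 12.88 for Krt1 in uninjured digit and blastema.

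**Figure D4:**
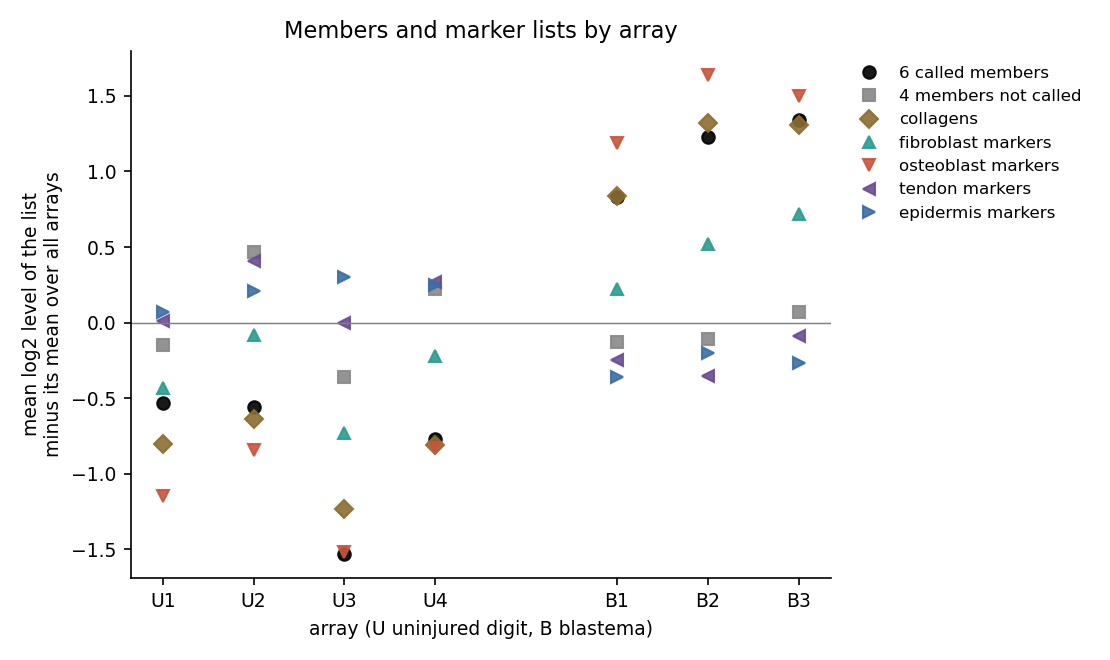
Mean log2 level of the 6 called members, the 4 other members and 5 gene lists on each array, minus the list's own mean over the 7 arrays (vertical axis; U uninjured digit, B blastema). The called members lie at -1.53 on uninjured array 3 and between 0.83 and 1.34 on the blastema arrays, close to the collagens, while the tendon and epidermis markers lie under 0 on the blastema arrays.

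Genes outside the 10 members with the profile most like that of a member were found by the root mean square distance of log2 levels, each gene relative to its own mean, over the 7 arrays and among 12200 genes, which leave out the members. For Lum they were the collagen genes Col3a1 (distance 0.203) and Col5a1 (0.215). For Fmod they were Crtap, part of a collagen prolyl hydroxylase complex (0.084), and Cald1, which encodes an actin-binding protein (0.130). Bgn lay nearest to the matrix remodelling gene Mxra8 (0.075) and the gelatinase gene Mmp2 (0.122). Aspn was nearest to Tgfb3 (0.148) and Tnn, a tenascin gene (0.152). Ogn was nearest to Gpx3, which encodes a secreted glutathione peroxidase (0.136), and Tnn (0.156), and Omd to Gpx3 (0.152) and Mxra8 (0.246). Lum was closer to the member Omd (0.173) than to either gene named for it, and the member Aspn was closer to Omd (0.162) than Mxra8 was and closer to Ogn (0.154) than Tnn was.

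The members that did not pass had other neighbours in profile. Dcn was nearest to Serping1, the C1 inhibitor gene (0.126), and Zfp709 (0.132), Prelp to Slc25a36 (0.102) and Olfml1 (0.112), and Kera to the secreted Wnt modulator gene Sfrp2 (0.249) and Txnip (0.260). Among the members themselves Aspn and Ogn were closest (0.154), Fmod and Bgn were nearest to each other (0.196), and so were Dcn and Prelp (0.220). Epyc, under the background proxy, was nearest to Kat2b and Crebzf (both 0.067).

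Scaling between arrays shifted all changes together. With each array scaled to 9 measured reference genes, the median log2 fold change of all genes went from -0.0054 to -0.27, and the share of higher genes among those called from 51.7% to 11%. Of the 9 reference genes themselves, 3 rose, B2m (1.34, limma adjusted p = 0.0125), Gusb (0.89, 0.0218) and Gapdh (0.31, 0.0191), and Rplp0 fell (-0.82, 0.00628), and 0 of them rose without blastema array 2 or 3 and 1 without uninjured array 3. Under this scaling the 6 members kept log2 fold changes of 1.53 to 2.04 and passed, Podnl1 did not pass (limma adjusted p = 0.0624), and Dcn and Prelp, which had not passed, changed sign to -0.15 and -0.06. The scaling lowers every change alike, so the medians of the chondroitin, keratan sulfate, chondrocyte and further family lists (0.20, 0.14, 0.21 and 0.04) turn negative under it.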

How the data were processed

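RNA of 7 samples (400 ng each, column-purified, amplified with a whole-transcript kit, per the labels' protocols) was hybridised to 1-colour arrays. The values deposited by the authors are log2 levels from RMA (background correction, normalization between arrays, summary of probes into probe sets), run in oligo, per the submitters' processing notes. Its version is not given in the sources used, and a global difference in RNA content would not show. The labels call the samples biological replicates and give no batch. Depth does not apply to arrays, and their number limits the precision.

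Of 41345 probe sets, 23521 named 1 gene, 1814 several and 16010 none in GEO's platform annotation. The brightest single-gene probe set over the 7 arrays stood for each of 22180 genes. Groups were compared with limma 3.58.1 in R 4.3.3 (lmFit and eBayes, no covariates), which was first tested on simulated data, and intervals cover 95%. Figures used matplotlib 3.10.9 in Python 3.11.15. The background proxy was chosen after the data were seen. Promoters are those of RefSeq (GRCm38.p6), matched by symbol, and listed genes with no single-gene probe set were not analysed here.

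Members and lists were chosen with earlier results of these data known. Named were all members, the other family genes, the 2 called genes of each further list with the largest change (or that of smallest p) and the 2 genes nearest in profile to each member (none of them a predicted gene, receptor of smell or small RNA). Alternatives were a replicate block, a level filter at the 30th percentile, the mean of all probe sets, all probe sets, weights per array, robust variances with an intensity trend, scaling to reference genes or the median, and omission of each array or of both arrays numbered 1.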

Additional observations from a re-analysis of the deposited data

How the results depend on the processing

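Bgn and Fmod rose and passed in all 16 alternative settings, Lum in 15, and Aspn, Ogn and Omd in 13, and array number and signal over background limit what can be seen of the dim genes Kera and Epyc. Of all genes, 2139 were called, 5525 under reference gene scaling, 599 with the replicate block, and 845 to 2295 with 1 array omitted, which left 3 to 6 members called. With the replicate block 2 members were called, and Lum (2.32, limma adjusted p = 0.0621), Aspn (1.85, 0.0745), Ogn (1.83, 0.0923) and Omd (2.02, 0.0716) did not pass. No blastema has number 4, so uninjured array 4 does not enter the comparison under the block. The log2 fold changes of Lum (2.32) and Chad (0.04) were the same with that array omitted. Whether the shared replicate numbers pair the samples is not given in the labels, and so few arrays cannot decide it. The correlations of deviations for equal numbers were 0.286, 0.151 and -0.065. Uninjured arrays 1 and 2 correlated most with the blastema array of their own number, and uninjured array 3 more with another number. With 1 array omitted, the log2 fold change of Aspn ran from 1.5 to 1.95, of Ogn from 1.57 to 2.02 and of Omd from 1.71 to 2.20. Signs turned for genes that were not called: Dcn (-0.15), Prelp (-0.06), Optc (-0.22) and Podn (-0.10) under reference gene scaling, Prelp (-0.04) with the mean of all probe sets, Chad (0.04) with the replicate block, and Nyx (0.01) without both arrays numbered 1. With 1 array omitted, Dcn ran from -0.07 to 0.28, Chad from -0.94 to 0.04 and Nyx from -0.04 to 0.01. With the mean of all probe sets the differences in change between Dcn and Bgn (-1.94), Dcn and Aspn (-1.68), Lum and Kera (2.84), Lum and Dcn (2.19), Fmod and Prelp (1.93), Prelp and Omd (-2.06) and Ogn and Epyc (1.99) had an adjusted p of 0.0449 by the exact permutation test. Without both arrays numbered 1, Fmod and Prelp differed by 1.93. Epyc was left out by the level filter. Fewer samples entered where arrays were omitted or had no partner in the block, and Prelp and Omd joined the pairs at the smallest p with averaged probe sets. Beyond this the cause was not tested.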
